A study of Mus musculus with 39 samples.

Results

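Lung gene expression was compared between mice fed 10000 ppm permethrin for 14 days (4 arrays) and mice fed 2500 ppm isoniazid for 14 days (5 arrays), which are 9 of the 39 arrays of the series and were taken by their titles alone. All were female Crlj:CD1(ICR) mice aged 12 weeks on a powdered diet. Each array is a biological replicate by its title and is called an animal here, although the labels do not say whether lungs were pooled. The stock is outbred, so animals on the same diet also differ in genotype. Isoniazid is named in the labels as the positive control for tumour induction. The dietary concentrations differ, so the comparison sets one diet against another and not equal doses. Beside it stand mice fed 5000 ppm permethrin and mice fed neither compound (control) for 14 days, 5 arrays each. Other animals, aged 11 weeks, ate 10000 ppm permethrin or 2500 ppm isoniazid for 7 days, 5 arrays each, and were measured in the same way. Whole lungs were used, so fewer cells of a type and less RNA per cell cannot be told apart in any value below.

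Permethrin is a pyrethroid insecticide that holds voltage-gated sodium channels open, and mammals clear it largely by ester hydrolysis through carboxylesterases and by oxidation. Isoniazid is a hydrazide drug used against tuberculosis. Cells exposed to electrophiles or oxidants release the transcription factor NRF2 from KEAP1, and NRF2 then switches on genes of glutathione synthesis and transfer, the thioredoxin system and quinone reduction through a DNA element called the antioxidant response element. A separate receptor, the aryl hydrocarbon receptor, acts through the xenobiotic response element, and Cyp1a1, a P450 that oxidizes planar aromatic compounds, is its best known target in lung.

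The values are the authors' array signals on a log2 scale after quantile normalization, 1 probe set per gene, and 13020 genes were bright enough to be tested. The median signal of an array ran from 17.9 to 26.2 over the 9 arrays, and correlations between them ran from 0.862 to 0.925. The log2 ratio of 3' to 5' Gapdh control signal, which is larger where RNA is more degraded, was above 0.7 on 3 of the 9 arrays: permethrin replicate 3 (1.29), isoniazid replicate 3 (0.93) and isoniazid replicate 5 (1.87). The lung identity of the samples was plain, since Sftpc, the surfactant protein of alveolar type 2 cells, lay at 12.72 to 12.95 with permethrin and 12.70 to 12.90 with isoniazid. Scgb1a1, which club cells secrete, was at the ceiling (13.18) on all but 1 of the 9 arrays, so no change in it could be seen. The small number of arrays, 4 and 5, limits the precision of the differences.

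With permethrin, 22 genes were higher than with isoniazid and 4 were lower at an adjusted p under 0.05 (limma, moderated test, Benjamini-Hochberg over 13020 genes). These are 0.169% and 0.0307% of the genes tested, and 654 genes had an unadjusted p under 0.05. The higher genes were largely enzymes of glutathione, thioredoxin, quinone, aldehyde and ester metabolism, with folds from 1.24 to 8.32. The lower genes were Cyp1a1, Alas1, Hykk and Msmo1. The fold changes of all genes tested had a median of 0.02 on the log2 scale. The spread was estimated over all 39 arrays, and fewer genes passed when it came from these 9 arrays alone, as given below. With each array centred on its median in place of quantile normalization, 19 genes passed, 18 higher and 1, Cyp1a1, lower. Among the 22 higher genes the 4 permethrin animals lay above all 5 isoniazid animals for 17, against 0.676% of all genes, and all 4 lower genes lay below, against 0.415%.

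**Figure D1:**
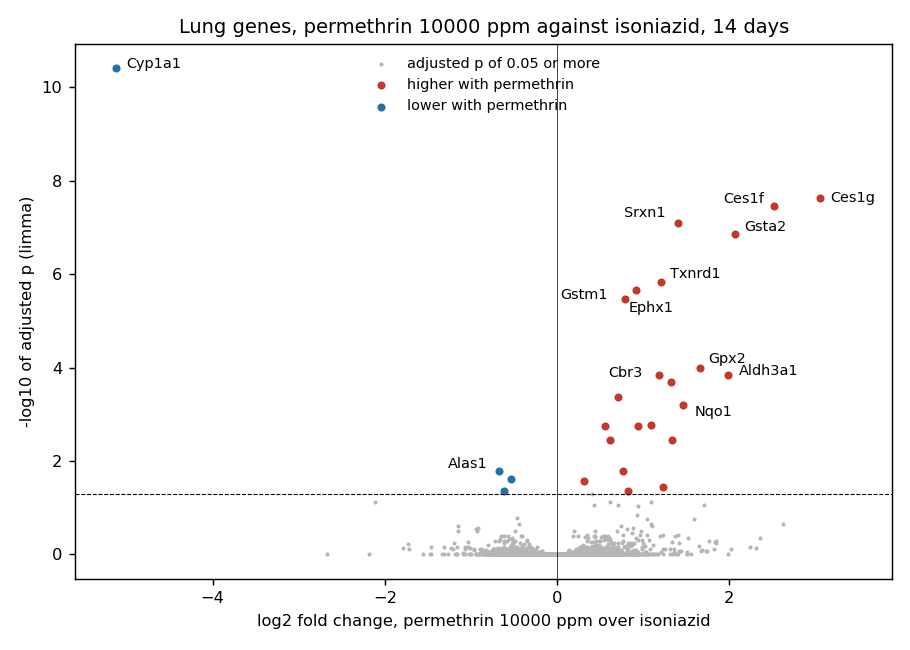
Each point is 1 of 13020 genes, placed by its log2 fold change (permethrin 10000 ppm over isoniazid, 14 days) and by -log10 of its adjusted p from limma. The dashed line is an adjusted p of 0.05. The 22 red genes are higher and the 4 blue genes lower with permethrin, and Cyp1a1 stands apart on the left at -5.13.

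Among the higher genes the esterases moved most. Ces1g and Ces1f are carboxylesterases, serine hydrolases that split ester bonds in lipids, drugs and pyrethroids. Ces1g measured 7.77, 7.87, 7.16 and 8.11 in the 4 permethrin lungs, against 3.96, 4.56, 4.60, 4.74 and 5.51 in the 5 isoniazid lungs (log2 signal, replicates in order of number, here and below). No animal overlapped, and Ces1g was 8.32-fold higher with permethrin (log2 3.06 ± 0.30 SE, adjusted p = 2.33e-08). Ces1f measured 8.18, 7.92, 7.40 and 7.87 with permethrin, against 5.42, 4.97, 4.59, 5.28 and 6.32 with isoniazid. The groups were again separate, and the fold was 5.76 (log2 2.53 ± 0.26, adjusted p = 3.52e-08). The mouse Ces1 genes are a cluster of near copies, and the probe set of Ces1f has the suffix that marks probes shared between transcripts, so signal from a relative cannot be told apart from its own.

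Other enzymes of the first step of foreign-compound metabolism were higher too. Ephx1, microsomal epoxide hydrolase, which opens reactive epoxides, measured 10.38, 10.50, 9.88 and 10.48 with permethrin, against 9.55, 9.43, 9.38, 9.56 and 9.01 with isoniazid. The groups did not overlap, and the fold was 1.90 (log2 0.92 ± 0.11, adjusted p = 2.23e-06). Aldh3a1, an aldehyde dehydrogenase of epithelia, measured 9.66, 10.01, 8.48 and 9.09 with permethrin, against 7.47, 7.79, 7.69, 6.37 and 7.29 with isoniazid. It too was separate between the groups, at 3.97-fold (log2 1.99 ± 0.30, adjusted p = 0.000144). Aox1, aldehyde oxidase, was 1.77-fold higher (log2 0.82 ± 0.19, adjusted p = 0.0430), and its groups overlapped, with 8.32 to 9.22 under permethrin and 7.59 to 8.59 under isoniazid.

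Quinone and carbonyl reductases formed a second set. Nqo1, which reduces quinones by a step that avoids radicals, measured 7.10, 7.60, 5.69 and 6.84 with permethrin, against 5.42, 5.40, 5.14, 4.64 and 6.08 with isoniazid. Permethrin replicate 3 lay below isoniazid replicate 5, and the other 3 permethrin animals lay above every isoniazid animal. The fold was 2.77 (log2 1.47 ± 0.24, adjusted p = 0.000632). Cbr3, a carbonyl reductase that uses NADPH, was 2.27-fold higher (log2 1.18 ± 0.18, adjusted p = 0.000144), again with 1 pair of animals crossing (8.54 in permethrin replicate 3 and 8.64 in isoniazid replicate 5). Its relative Cbr1, chosen after its values were seen, was 1.64-fold higher (adjusted p = 0.000424), with 8.40 to 9.08 under permethrin and 7.72 to 8.18 under isoniazid.

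Among glutathione genes, Gclc, Gss, Gsta2 and Gstm1 were called higher. Gclc, the catalytic subunit of glutamate-cysteine ligase, which makes the limiting precursor of glutathione, measured 10.30, 10.49, 10.29 and 10.22 with permethrin, against 8.62, 9.53, 9.91, 8.98 and 8.39 with isoniazid. The permethrin lungs were tightly grouped and all above the isoniazid lungs, which varied widely (log2 1.24 ± 0.27, adjusted p = 0.0362). Gss, glutathione synthetase, which completes the tripeptide, was 1.92-fold higher (log2 0.94 ± 0.17, adjusted p = 0.00176), at 7.11 to 8.25 with permethrin and 6.33 to 7.29 with isoniazid. Gsta2, an alpha-class glutathione transferase, measured 9.78, 9.98, 9.14 and 9.58 with permethrin, against 7.62, 7.47, 6.91, 7.14 and 8.60 with isoniazid. The lowest permethrin lung lay above the highest isoniazid lung, and the fold was 4.20 (log2 2.07 ± 0.23, adjusted p = 1.40e-07). Gstm1, a mu-class transferase, measured 11.54, 11.61, 11.05 and 11.63 with permethrin, against 10.76, 10.62, 10.47, 10.76 and 10.70 with isoniazid. Its fold was smaller at 1.74 but its spread was small as well (log2 0.80 ± 0.10, adjusted p = 3.48e-06). Glutathione transferases are families of similar genes, and the Gstm1 probe set carries a suffix for probes that match other transcripts, so the family members are not cleanly separated on this array.

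Srxn1, Txnrd1 and Gpx2, which act against peroxides, and Pgd were also higher. Srxn1, sulfiredoxin, which repairs over-oxidized peroxiredoxins, measured 8.19, 8.45, 7.43 and 8.10 with permethrin, against 6.40, 6.46, 6.54, 6.66 and 7.10 with isoniazid. The groups were separate, and the fold was 2.66 (log2 1.41 ± 0.15, adjusted p = 7.97e-08). Txnrd1, cytosolic thioredoxin reductase, which keeps thioredoxin reduced, measured 9.95, 10.26, 9.26 and 10.02 with permethrin, against 8.45, 8.83, 8.54, 8.61 and 8.90 with isoniazid. It was 2.31-fold higher with no overlap (log2 1.21 ± 0.15, adjusted p = 1.48e-06). Gpx2, an epithelial glutathione peroxidase, measured 9.23, 9.84, 8.73 and 8.88 with permethrin, against 7.04, 7.81, 6.95, 7.11 and 8.66 with isoniazid. Its lowest permethrin animal narrowly exceeded its highest isoniazid animal, and the fold was 3.15 (log2 1.66 ± 0.25, adjusted p = 0.000104). Pgd, 6-phosphogluconate dehydrogenase, which makes NADPH and was chosen after its values were seen, was 1.70-fold higher (adjusted p = 0.0164), with 9.96 to 10.62 under permethrin and 9.16 to 10.03 under isoniazid.

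Further higher genes had other roles. Blvrb, biliverdin reductase B, which acts on haem breakdown products and flavins, measured 8.23, 8.67, 7.84 and 8.17 with permethrin, against 7.25, 6.94, 5.74, 7.02 and 7.51 with isoniazid. No animal overlapped, and the fold was 2.53 (log2 1.34 ± 0.25, adjusted p = 0.00353). Blvrb is also abundant in red cells, whose 5 tested markers had a mean log2 signal of 7.61 to 8.18 and a summed signal of 1567 to 2165 with permethrin, against 5.45 to 7.97 and 393 to 2066 with isoniazid, none at 0. Isoniazid replicate 3 was lowest both in that score and in Blvrb, which without it was at log2 1.05 (adjusted p = 0.0176). Abcc3, which exports conjugates with glucuronate and glutathione, was 1.54-fold higher (log2 0.62 ± 0.12, adjusted p = 0.00353), at 7.77 to 8.07 with permethrin and 7.12 to 7.45 with isoniazid. Entpd5, a nucleotidase of the endoplasmic reticulum, measured 8.10, 8.83, 7.46 and 7.84 with permethrin, against 6.73, 6.60, 6.26, 6.69 and 7.41 with isoniazid. Its fold was 2.5 (log2 1.32 ± 0.21, adjusted p = 0.000206), without overlap. Ikbkg, the regulatory subunit of the kinase that activates NF-kB, and Pgrmc1, a haem-binding membrane protein that supports P450s, were chosen after their values were seen. Ikbkg was 1.47-fold higher (adjusted p = 0.00176) and Pgrmc1 1.24-fold (adjusted p = 0.0270), the smallest change of the 22.

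The start regions of 3 of these higher genes are shown because they hold the core letters of the antioxidant response element, TGACNNNGC, read on either strand. The windows run from 250 bases before to 50 after a RefSeq gene start on GRCm38.p6, and the match, found here on the minus strand in each, is in capitals. They are Srxn1 at chr2:152105274-152105573, Txnrd1 at chr10:82858956-82859255 and Ikbkg at chrX:74424362-74424661, all on the plus strand.
Srxn1: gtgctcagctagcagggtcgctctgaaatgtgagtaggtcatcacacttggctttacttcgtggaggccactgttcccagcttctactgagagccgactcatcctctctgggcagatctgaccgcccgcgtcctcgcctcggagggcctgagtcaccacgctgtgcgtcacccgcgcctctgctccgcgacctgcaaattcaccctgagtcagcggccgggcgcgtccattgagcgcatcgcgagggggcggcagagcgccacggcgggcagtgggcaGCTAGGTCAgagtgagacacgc
Txnrd1: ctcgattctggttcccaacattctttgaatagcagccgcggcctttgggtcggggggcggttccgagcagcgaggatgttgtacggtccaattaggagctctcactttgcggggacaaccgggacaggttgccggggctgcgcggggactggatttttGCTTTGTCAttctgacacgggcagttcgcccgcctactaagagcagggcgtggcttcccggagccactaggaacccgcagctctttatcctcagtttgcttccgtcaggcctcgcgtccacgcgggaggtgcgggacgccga
Ikbkg: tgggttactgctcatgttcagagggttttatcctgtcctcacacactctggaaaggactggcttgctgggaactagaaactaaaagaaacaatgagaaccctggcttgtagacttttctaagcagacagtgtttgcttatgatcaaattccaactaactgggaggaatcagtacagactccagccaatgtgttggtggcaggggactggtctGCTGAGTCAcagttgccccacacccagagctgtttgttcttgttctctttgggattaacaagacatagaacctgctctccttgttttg
Counted along the gene with its start as 0, the match begins at base 28 in Srxn1, at -92 in Txnrd1 and at -38 in Ikbkg. RefSeq gives Txnrd1 3 start windows and Ikbkg 4, and 1 of each held the core. These genes were picked after the motif search. The core was found for 6 of the 18 higher genes and 1 of the 4 lower genes that the RefSeq windows cover, and for 16.8% of the 10484 tested genes with a window (12.4% of all 32851 windows). A match describes letters and not a site that a factor occupies, and these windows are short.

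Fetub, fetuin B, is a secreted protease inhibitor made mainly by liver. It measured 5.77, 5.89, 5.79 and 5.69 with permethrin, against 4.63, 4.68, 4.42, 4.63 and 5.08 with isoniazid. The groups were separate and the fold was 2.14 (log2 1.10 ± 0.19, adjusted p = 0.00169). Signal of other liver genes was also unequal between these arrays, as described further on. With liver and cardiac scores in the model Fetub was at log2 0.91 (adjusted p = 0.0703). Fetub is itself among the markers in that liver score, so this fit cannot tell its liver share. Ces1g and Ces1f, which liver also expresses strongly, kept their calls in that model, at log2 2.94 (adjusted p = 1.13e-06) and 2.53 (adjusted p = 5.28e-07). The liver score itself differed between the diets, and the part of liver in both genes was not tested.

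**Figure D2:**
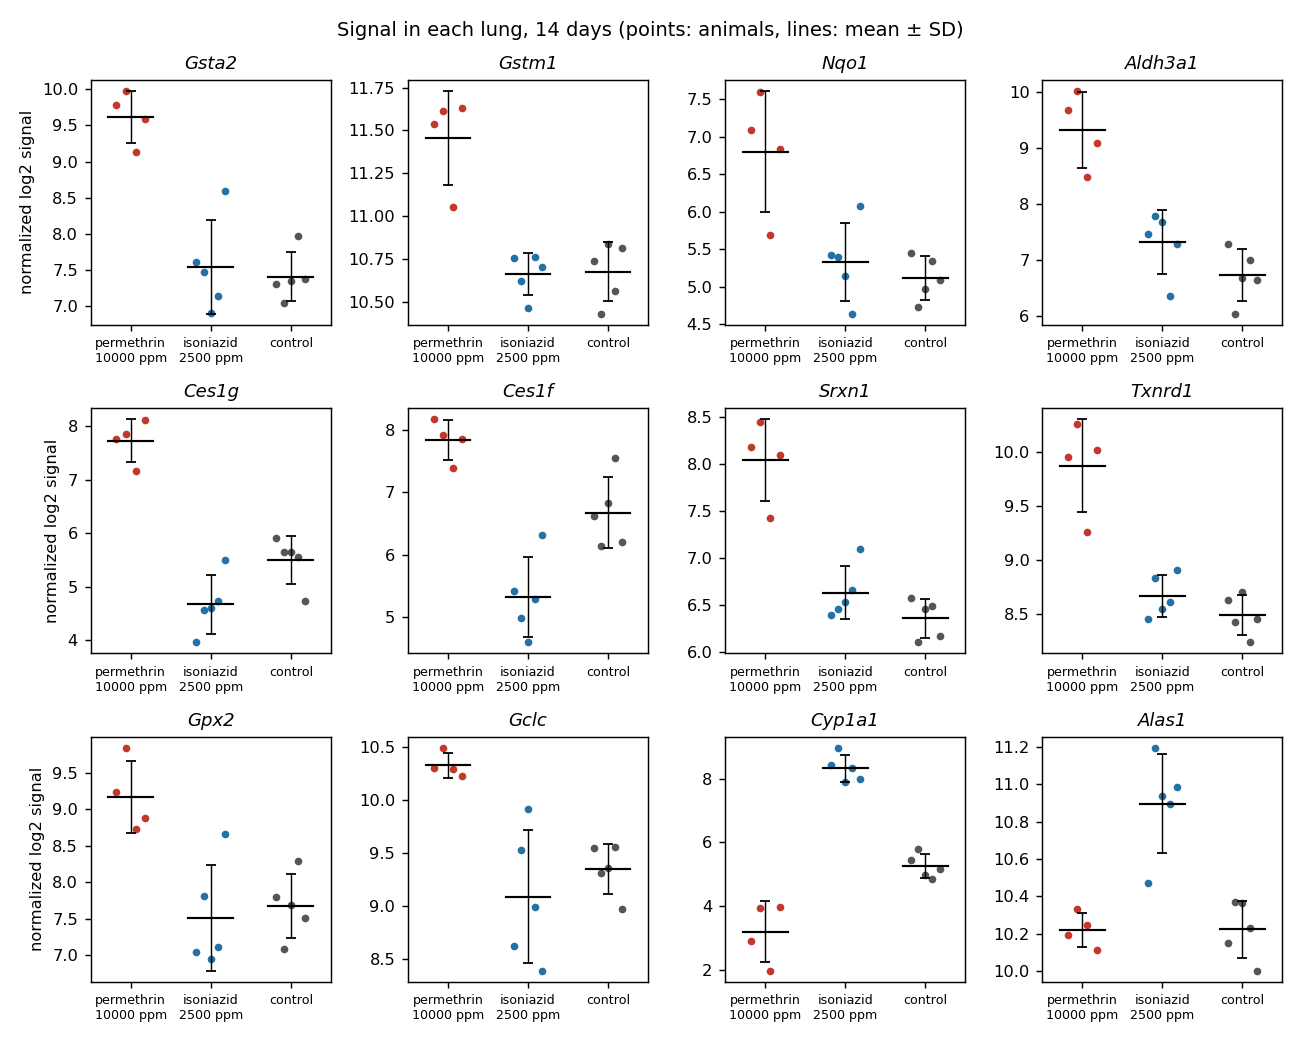
Normalized log2 signal of 12 genes in each lung at 14 days, with permethrin 10000 ppm (red, n = 4), isoniazid 2500 ppm (blue, n = 5) and control (grey, n = 5). Points are animals and lines are the mean ± SD. Cyp1a1 shows 3 separate levels, with isoniazid highest and permethrin lowest, and Gsta2 is high in the permethrin animals alone, while Alas1 is high in the isoniazid animals alone.

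Single animals of each group stood out over the higher genes. Permethrin replicate 3 was the lowest permethrin array for 19 of the 22, and permethrin replicate 2 the highest for 17. Isoniazid replicate 5 was the highest isoniazid array for 15 of the 22, and isoniazid replicate 3 the lowest for 11. Permethrin replicate 3 and isoniazid replicate 5 are the arrays with the largest Gapdh ratio of their groups. When the 7 arrays of the series with a Gapdh ratio above 0.7 were left out, 29 genes passed with 3 animals against 3, among them 24 of the 26. Nqo1 then had a log2 fold change of 2.03, Srxn1 of 1.74 and Cyp1a1 of -4.97. Alas1 and Hykk did not pass there (log2 -0.64, adjusted p = 0.261, and -0.51, adjusted p = 0.299).

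Cyp1a1 was the gene with the largest difference in either direction. It measured 2.89, 3.93, 1.97 and 3.97 in the permethrin lungs, against 8.41, 8.96, 7.89, 8.33 and 8.0 in the isoniazid lungs. The groups were far apart, and the log2 fold change was -5.13 ± 0.39 (adjusted p = 3.92e-11). The permethrin mean of 3.19 lies under the level of 3.43 at which genes were dropped as too dim, so the size of this fold rests on signals near the bottom of the scale. The 14-day control animals lay between both diets, at 4.85 to 5.79. Of the other targets of the aryl hydrocarbon receptor, here chosen after their values were seen, Cyp1b1 was at log2 -0.16 (adjusted p = 0.998) and Tiparp at -0.07 (adjusted p = 0.998), and Nqo1 and Aldh3a1, which NRF2 and the receptor can both drive, were higher with permethrin. The list of its targets held 2 higher and 1 lower gene among 8 tested, against 0.169% and 0.0307% of all genes tested.

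The start region of Cyp1a1, at chr9:57697363-57697662 on the plus strand of GRCm38.p6, is shown because it holds the core letters of the xenobiotic response element, GCGTG, in capitals and read on either strand, at -54 from the gene start.
Cyp1a1: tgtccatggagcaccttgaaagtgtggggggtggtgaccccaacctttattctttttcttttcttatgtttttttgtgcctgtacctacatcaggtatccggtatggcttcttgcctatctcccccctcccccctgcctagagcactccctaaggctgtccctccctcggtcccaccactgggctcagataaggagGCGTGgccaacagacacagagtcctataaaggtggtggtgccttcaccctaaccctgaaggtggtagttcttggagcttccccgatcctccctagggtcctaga
This short core is common: 32.4% of all windows and 54.3% of the tested genes with a window hold it, beside 3 of the 4 lower and 12 of the 18 higher genes that were covered.

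Alas1, aminolevulinate synthase, makes the first committed precursor of haem. It measured 10.19, 10.33, 10.24 and 10.11 with permethrin, against 10.47, 11.20, 10.94, 10.89 and 10.99 with isoniazid. All permethrin animals lay below all isoniazid animals (log2 -0.68 ± 0.14, adjusted p = 0.0164). The other enzymes of haem synthesis, looked up after the values were seen, were not called, with log2 fold changes from -0.10 for Alad to 0.49 for Fech, and the red-cell form Alas2 was at 0.62 (adjusted p = 0.998). Hykk, a kinase of hydroxylysine breakdown, measured 6.17, 5.81, 6.02 and 6.25 with permethrin, against 6.50, 6.63, 6.73, 6.62 and 6.49 with isoniazid (log2 -0.53 ± 0.11, adjusted p = 0.0244). Its groups were separate, but a second probe set of Hykk that was bright enough gave 0.05. Msmo1, a sterol oxidase of cholesterol synthesis, measured 7.20, 7.22, 7.13 and 6.93 with permethrin, against 7.57, 7.76, 7.57, 8.15 and 7.60 with isoniazid, without overlap (log2 -0.61 ± 0.14, adjusted p = 0.0430).

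Of the 26 calls, 7 depended on single animals. Leaving out 1 of the 9 animals at a time gave 20 to 34 genes. Msmo1 was lost without any one of the 4 permethrin animals and without isoniazid replicate 2 or 4 (adjusted p = 0.081 to 0.21), and Gclc without any one permethrin animal and without isoniazid replicate 1, 4 or 5 (0.0828 to 0.2). Aox1 was lost without permethrin replicate 1 or 2 or isoniazid replicate 1, 2 or 3 (adjusted p = 0.126 to 0.393), Pgd without permethrin replicate 1, 2 or 3 or isoniazid replicate 2 or 4 (0.0524 to 0.201), and Pgrmc1 without permethrin replicate 1, 2 or 4 or isoniazid replicate 2 or 3 (0.0661 to 0.292). Hykk was lost without permethrin replicate 2 or 3 or isoniazid replicate 2, 3 or 4 (adjusted p = 0.0605 to 0.254), and Alas1 without permethrin replicate 1 or 4 or isoniazid replicate 2 (0.0714 to 0.0861). The other 19 calls held each time. When the spread was estimated from these 9 arrays alone, 5 genes passed, namely Cyp1a1, Ces1g, Ces1f, Gsta2 and, outside the 26 and named after its values were seen, Alb, and the other 22 had adjusted p-values from 0.0526 to 0.999.

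Both diets can be set against the same 5 control animals at 14 days. Because the controls are shared, the values are given side by side and not combined. The groups also differed in tissue markers. White fat markers had median log2 differences from control of 1.93 with permethrin and 1.32 with isoniazid. The mean log2 signal of club-cell markers had a median of 8.79 in controls, 10.22 with permethrin and 9.82 with isoniazid, with overlapping ranges. Control replicates 4 and 5 had a Gapdh ratio above 0.7. The part of fat and club cells in the control differences was not tested. With permethrin, 27 genes were higher than in controls (0.207% of genes tested) and 1 was lower (0.00768%), at 787 unadjusted. With isoniazid, 2 were higher (0.0154%), Cyp1a1 and Alas1, and 2 lower (0.0154%), at 785 unadjusted. Single animals weighed on both counts: permethrin gave 17 genes without its replicate 2 and 48 without its replicate 4, and isoniazid gave 1 without control replicate 4 or isoniazid replicate 3 and 6 without control replicate 3. Of the 22 genes higher with permethrin than with isoniazid, 19 were higher with permethrin than in controls, and 1, Ces1f, was lower with isoniazid than in controls. The 22 were picked on these same permethrin and isoniazid arrays, so both counts are partly built in and are no separate result. For Gsta2 the log2 difference from control was 2.21 ± 0.23 with permethrin (adjusted p = 6.44e-08) and 0.14 ± 0.21 with isoniazid (adjusted p = 0.978). For Srxn1 it was 1.68 ± 0.15 (adjusted p = 2.63e-09) and 0.27 ± 0.14 (adjusted p = 0.870), and for Txnrd1 1.38 ± 0.15 (adjusted p = 9.09e-08) and 0.18 ± 0.14 (adjusted p = 0.934). In these 3 genes of redox defence the permethrin lungs stood above the controls, and no difference from control was detected with isoniazid.

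Ces1f, Cyp1a1 and Alas1 differed from control with isoniazid, but not all of these calls held in other fits. Without control replicate 4 or isoniazid replicate 3, or with the compared arrays alone, 1 gene was higher and 0 lower. There Ces1f was not called, and at most 1 of Cyp1a1 and Alas1 was. Likewise 1 gene was higher with median-centred arrays, array weights, tissue scores as covariates or arrays of high Gapdh ratio left out. With the replicate number as a block or no filter, 2 were higher. Ces1f was 1.17 ± 0.26 above control with permethrin (adjusted p = 0.0271), and with isoniazid its log2 difference was -1.36 ± 0.24 (adjusted p = 0.00938). Liver markers had medians of 0.38 and -0.98 in the same contrasts, and their part in the Ces1f values was not tested there. Cyp1a1 was at -2.06 ± 0.39 with permethrin (adjusted p = 0.00477) and at 3.07 ± 0.37 with isoniazid (adjusted p = 9.05e-06), so it lay below control with one diet and above it with the other. Alas1 was at 0.00 ± 0.14 with permethrin (adjusted p = 0.999), against 0.67 ± 0.13 with isoniazid (adjusted p = 0.0351). The other gene below control with isoniazid was Itgae, the integrin chain of lymphocytes that lodge in epithelia, named after its values were seen (log2 -1.42, adjusted p = 0.00938). Between the diets Itgae was at 1.09 (adjusted p = 0.0753). Gclc, Aox1 and Pgrmc1 among the higher genes, and Hykk and Msmo1 among the lower ones, did not pass against control with either diet.

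The lower permethrin dose gave levels between those of controls and of the higher dose for several of these genes, with no test made of the steps. Srxn1 averaged 6.36 ± 0.21 in controls, 7.40 ± 0.10 at 5000 ppm and 8.04 ± 0.44 at 10000 ppm (mean ± SD of log2 signal at 14 days, n = 5, 5 and 4). Aldh3a1 averaged 6.73 ± 0.46, 8.52 ± 0.35 and 9.31 ± 0.67 in the same order, and Gsta2 7.41 ± 0.34, 9.03 ± 0.21 and 9.62 ± 0.36. Ces1g was already at 7.59 ± 0.40 at 5000 ppm, within its spread of the 7.73 ± 0.40 at 10000 ppm. Cyp1a1 ran the other way, at 5.25 ± 0.37 in controls, 4.67 ± 0.58 at 5000 ppm and 3.19 ± 0.95 at 10000 ppm.

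Other animals, fed for 7 days, allowed the same comparison in mice 1 week younger. Their arrays shared the normalization and the estimate of spread with the 14-day arrays, but not the group means. There 23 genes were higher with permethrin than with isoniazid (0.177%) and 1 was lower (0.00768%), at 467 unadjusted. With each array centred on its median, 14 were higher and 1 lower, and with array weights 31 were higher and 11 lower. Of the 22 genes higher at 14 days, 20 were also called higher at 7 days, all 22 had the same sign, and in all 22 the 5 permethrin animals lay above the 5 isoniazid animals, as did 0.538% of all genes tested. The 2 without a call at 7 days were Pgd, at log2 0.62 (adjusted p = 0.0932), and Pgrmc1, at 0.27 (adjusted p = 0.0881). Ces1g was at 2.81 ± 0.28, Gsta2 at 2.34 ± 0.21 and Aldh3a1 at 2.02 ± 0.29, the largest rises at 7 days. Among the 4 lower genes, Cyp1a1 alone was called at 7 days (log2 -3.53 ± 0.37, adjusted p = 7.04e-08) and alone lay below without overlap, as did 0.545% of all genes. Its level at 7 days was 4.63 ± 0.56 with permethrin and 8.16 ± 0.53 with isoniazid (n = 5 each). Alas1 was at -0.53 ± 0.13 (adjusted p = 0.113), Msmo1 at -0.17 (adjusted p = 1) and Hykk at -0.11 (adjusted p = 1).

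The 3 genes called at 7 days and not at 14 days, named after their values were seen, were Acox2, Gclm and Scn3b. Acox2, a peroxisomal oxidase of bile acid side chains, was at log2 0.89 at 14 days (adjusted p = 0.269) and 1.10 at 7 days (adjusted p = 0.0201). Gclm, the modifier subunit of glutamate-cysteine ligase, was at 0.71 at 14 days (adjusted p = 0.0867) and 0.73 at 7 days (adjusted p = 0.0415), which are similar values on either side of the threshold. Scn3b, an auxiliary subunit of sodium channels, was at -0.05 at 14 days (adjusted p = 0.998) and 0.76 at 7 days (adjusted p = 0.00856). The change of the permethrin minus isoniazid difference between the times was itself tested for every gene, and 0 of 13020 passed (0%) by limma, with 334 at an unadjusted p under 0.05. For Scn3b that change was -0.81 (adjusted p = 1), for Cyp1a1 -1.60 ± 0.54, and for the 22 higher genes it ran from -0.32 to 0.89. The smallest p-values of the change belonged to H2-M10.1 at 2.22, 1600014C10Rik at 0.97 and Fos at 1.03, which did not pass. Times and ages differ together between these sets of animals.

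**Figure D3:**
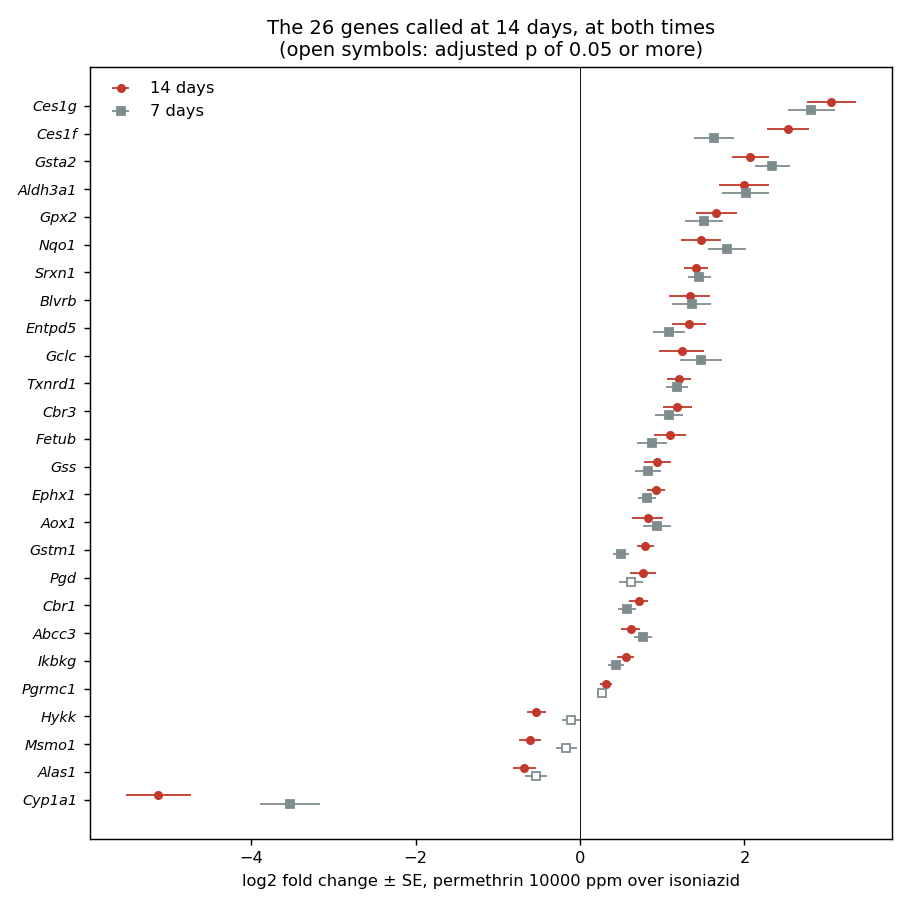
Log2 fold change ± SE (permethrin 10000 ppm over isoniazid) of the 26 genes called at 14 days, in the 14-day animals (red circles) and in the 7-day animals (grey squares). Filled symbols have an adjusted p under 0.05. The 22 genes right of 0 lie right of 0 at both times, and Pgd, Pgrmc1, Hykk, Msmo1 and Alas1 have open symbols at 7 days.

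The pathway lists were chosen with earlier results of these data known. The called genes named above stay in the list counts and medians, and some genes, such as Ephx1, Gsta2 and Aldh3a1, stand in several lists. Of 38 tested genes of NRF2 targets, glutathione and thioredoxin, 15 were higher and 0 lower, against 0.169% and 0.0307% of all genes tested. In this list 37 had a positive fold change (54.9% of all genes did), with a median of 0.62 against 0.02 for all genes. At 7 days 15 were higher and 0 lower, against 0.177% and 0.00768% of all genes tested, with a median of 0.46. Members that did not pass, picked after their values were seen, included Gsta3 at 0.93 (adjusted p = 0.141), Gstm3 at 0.74 (adjusted p = 0.242) and Gsr, glutathione reductase, at 0.63 (adjusted p = 0.537) and, as the 1 negative member, Gstm5 at -0.19. Hmox1, the inducible haem oxygenase, measured 6.91, 7.73, 6.46 and 7.02 with permethrin, against 6.38, 6.53, 6.17, 6.58 and 6.73 with isoniazid (log2 0.55 ± 0.17, adjusted p = 0.413). Its groups overlapped, and it passed when permethrin replicate 3 was left out (log2 0.74, adjusted p = 0.0465). Fth1, ferritin heavy chain, and Gpx1, the main cytosolic glutathione peroxidase, were at 0.02 and 0.01 (adjusted p = 0.998 for both).

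For the lists that follow, the shares over all genes tested were 0.169% higher and 0.0307% lower. The 38 genes of P450s and phase 1 held 5 higher and 0 lower, with a median of 0.17, and the 5 were Ces1g, Ces1f, Ephx1, Aldh3a1 and Aox1. No P450 of this list passed, but Cyp1a1, the P450 called lower, is not in it and was counted among aryl hydrocarbon receptor targets. Cyp2b10, the classic target of the receptor CAR, measured 10.92 to 11.13 with permethrin and 10.99 to 11.27 with isoniazid (log2 -0.09 ± 0.10, adjusted p = 0.998), and Cyp2f2, the main P450 of mouse club cells, 12.44 to 12.73 and 12.53 to 12.63 (log2 0.01 ± 0.06). Phase 2 enzymes and transporters held 3 higher genes of 25 (Gsta2, Gstm1 and Abcc3) with a median of 0.27. Haem synthesis, breakdown and iron held 1 higher (Blvrb) and 1 lower (Alas1) of 23, with a median of 0.02. Cholesterol synthesis held 1 lower gene of 18, Msmo1, with a median of -0.30, and 1 of the 18 fold changes was positive, Dhcr7 at 0.09. At 7 days that median was -0.09.

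The lists of metallothioneins, clock, cell cycle, p53 targets and sodium channels held no called gene. Metallothioneins Mt1 and Mt2, which bind zinc and rise with glucocorticoids and metals, were at 0.12 ± 0.22 and 0.16 ± 0.31. The circadian clock had a median of -0.24, with Arntl, the driver of the positive arm, at 0.97 (adjusted p = 0.381) and the output gene Tef at -0.59 (adjusted p = 0.527). Among cell cycle genes, 0 of 32 passed and the median was -0.11, with the proliferation marker Mki67 at -0.36 ± 0.27 and topoisomerase Top2a at -0.22 ± 0.23. Among p53 targets, 0 of 21 passed, with Sesn2 at -1.07 (adjusted p = 0.763) and Mdm2 at 0.20 (adjusted p = 0.995). Only 5 voltage-gated sodium channel genes were bright enough to test, none passed, and Scn3a and Scn4b were at -0.62 (adjusted p = 0.573) and -0.64 (adjusted p = 0.998).

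**Figure D4:**
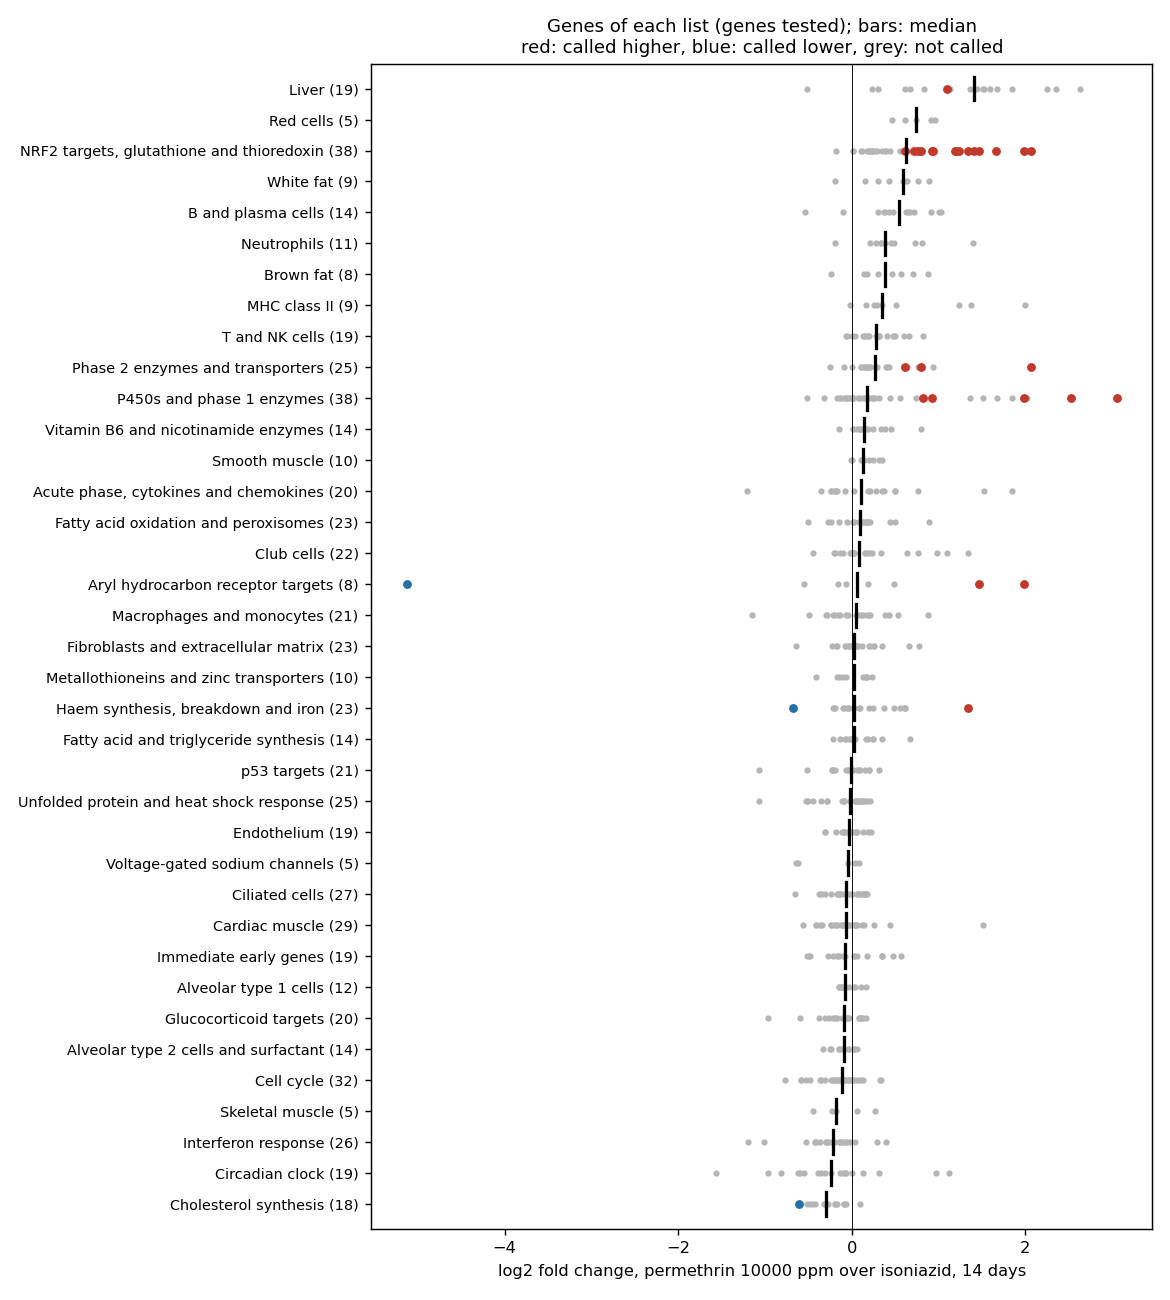
Log2 fold changes (permethrin 10000 ppm over isoniazid, 14 days) of the tested genes of 37 lists, 1 row per list with the number tested, sorted by their median (black bar). Red genes are called higher, blue genes lower and grey genes neither. The NRF2 list holds 15 red genes, and the liver list has the highest median (1.41) with 1, where 0.169% of all genes tested were called higher.

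Markers of tissues that lie beside the lung were read next to the results above. Of 29 liver markers, 22 were on the array and 19 were tested. Of the 19, 18 had a positive fold change (54.9% of all genes did), and 1, Fetub, was called higher (0.169% of all genes were). For 5 of the 19 the permethrin animals lay above all isoniazid animals, against 0.676% of all genes. The mean log2 signal of the 19 was 5.25 to 6.85 with permethrin, against 4.45 to 5.30 with isoniazid, and 4.93 to 5.96 in controls. The median difference of liver markers from control was 0.38 with permethrin (15 of 19 positive) and -0.98 with isoniazid (5 of 19 positive). Their summed linear signal was 1287 to 3598 with permethrin, 1053 to 1809 with isoniazid and 1316 to 1978 in controls, and none was listed at 0. Looked up after their values were seen, albumin (Alb) was at log2 2.63 (adjusted p = 0.218) and Apoh, a plasma apolipoprotein, at 1.59 (adjusted p = 0.178). The liver median between the diets was 1.41 at 14 days, against -0.08 at 7 days. Permethrin replicate 3 had the highest liver score of its group (6.85) and the lowest signal for 19 of the 22 higher genes. It also had the largest Gapdh ratio of its group (1.29), and how these 3 traits are related was not tested.

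Cardiac muscle, with 29 tested genes, had a median of -0.06 between the diets and no called gene. Its mean log2 signal was 6.42 to 8.83 with permethrin, 7.06 to 8.48 with isoniazid and 5.74 to 7.49 in controls. Its median difference from control was 0.87 with permethrin and 1.01 with isoniazid. Red cells had a median of 0.74 between the diets at 14 days (5 of 5 positive) and of 1.46 at 7 days (5 of 5). White fat had a median of 0.60, B and plasma cells of 0.55, neutrophils of 0.38 (10 of 11 positive) and T and NK cells of 0.28 (17 of 19 positive), with 0 called genes in each of these lists. At 7 days the medians were -0.13 for white fat (2 of 9 positive) and -0.48 for neutrophils (0 of 11). For B and plasma cells the 7-day median was 0.60 (13 of 14 positive), and for T and NK cells 0.03 (12 of 19). With the cardiac and liver scores as covariates, 21 genes passed and all 21 were among the 26. Beside Fetub, part of the liver score, the calls of Aox1 (adjusted p = 0.0703), Hykk (0.115), Alas1 (0.189) and Msmo1 (0.362) were lost there. The parts of these tissues in the other results were not tested.

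**Figure D5:**
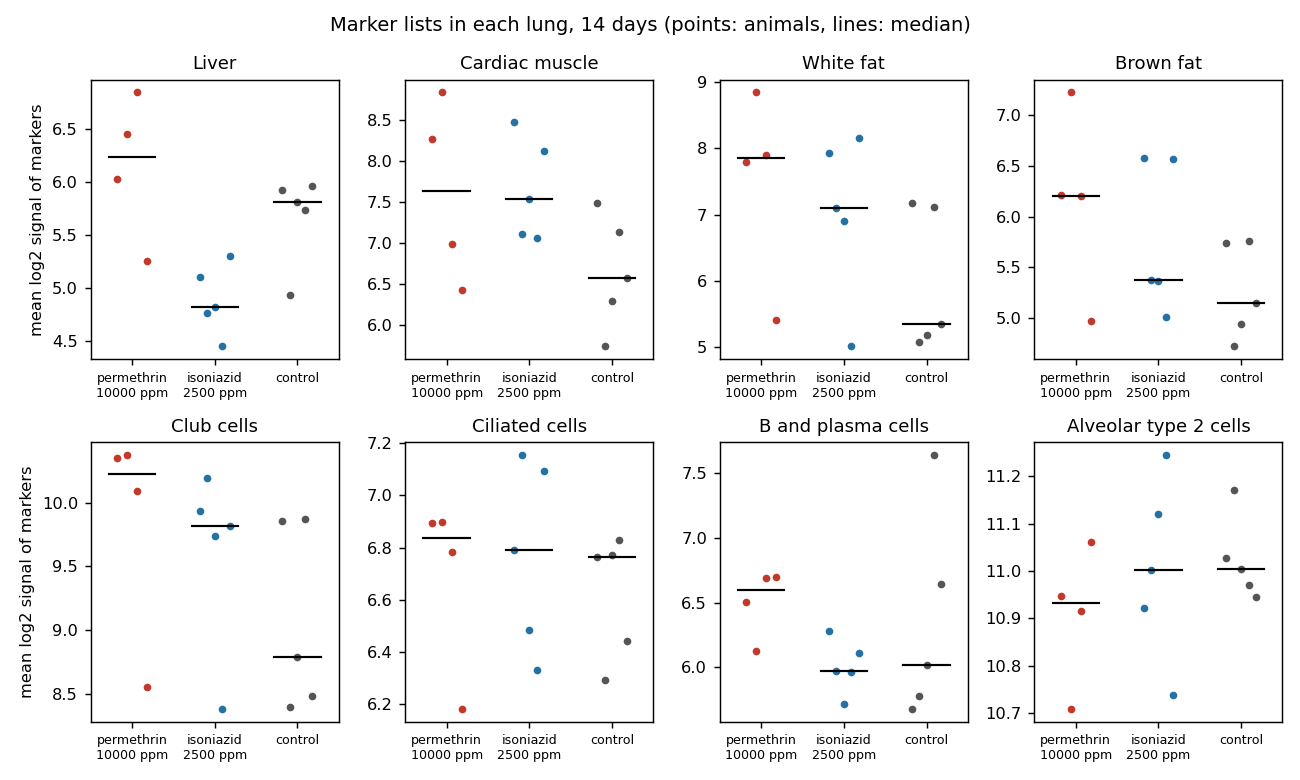
Mean normalized log2 signal of the marker genes of 8 tissues or cell types in each lung at 14 days, for permethrin 10000 ppm (red, n = 4), isoniazid 2500 ppm (blue, n = 5) and control (grey, n = 5), with lines at the median. The liver score of 3 permethrin animals lies above every isoniazid animal, and the score of alveolar type 2 cells stays between 10.7 and 11.2 in both.

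Lung cell types themselves showed no called gene between the diets. Alveolar type 2 cells had a median of -0.09 over 14 genes, alveolar type 1 cells of -0.08 over 12, ciliated cells of -0.06 over 27, club cells of 0.09 over 22 and endothelium of -0.04 over 19. The club-cell score varied widely within each diet, at 8.55 to 10.37 with permethrin and 8.38 to 10.19 with isoniazid. It was lowest in replicate 4 of both diets. With such spread, the lack of calls does not show equal club-cell content. Aldh1a1 and Mgst1, club-cell enzymes of aldehyde and glutathione metabolism, were the nearest to a call in their list, at 0.20 ± 0.06 (adjusted p = 0.314) and 0.18 ± 0.06 (adjusted p = 0.409). Both had groups that did not overlap. Against control with permethrin they were at 0.31 (adjusted p = 0.00343) and 0.26 (adjusted p = 0.0221). The club-cell score of the controls was 8.39 to 9.87, and its part in these 2 values was not tested. Ctsk, cathepsin K of macrophages and osteoclasts, measured 4.78, 6.72, 6.96 and 6.66 with permethrin, against 7.07, 7.55, 7.09, 7.96 and 7.49 with isoniazid, and did not pass (log2 -1.15 ± 0.32, adjusted p = 0.242). The groups of Ctsk did not overlap, and it passed in the limma fit with array weights (log2 -1.60, adjusted p = 0.0478).

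Where the array carries several probe sets of a called gene, most of them moved alike. The 26 genes have 53 probe sets, of which 27 were not used in the test, 23 of these were bright enough, and 21 of the 23 had the sign of the one used. The 2 exceptions were a second probe set of Hykk at 0.05 and one of Srxn1 at -0.67. With every probe set tested on its own, 41 passed, and 36 of the 41 were higher. Of the 41, 33 carry 1 gene each and stand for 26 genes, while 5 carry several genes and 3 none. These 26 genes are not the same as the 26 called. Aox1 and Msmo1 did not pass there (limma, adjusted p = 0.0589 and 0.0591).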

How the data were processed

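The values are linear signal intensities of Affymetrix 3' arrays deposited by the authors; the submitters' processing notes name MAS5 (version not given in the sources used here), with every array scaled to a trimmed mean of 100. RNA came from lungs kept in stabilizing solution and was labelled as biotin cRNA, per the labels' protocols. Signals were taken as log2, with no value added, and quantile normalized over 39 arrays. Quantile normalization equalizes the arrays and would hide a change of all genes. Of 45101 probe sets, 64 are controls, 34945 carry 1 symbol, 932 several and 9160 none in the platform's annotation. The probe set with the highest mean stood for each of 18193 genes, and those in the upper 60% of probe sets by mean signal (log2 3.43, signal 10.8) were kept, 13020 genes. One limma fit (R 4.3.3, limma 3.58.1) held the means of 8 groups, with a mean-variance trend, and p-values were adjusted by Benjamini-Hochberg over all genes (threshold 0.05).

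The animals, comparisons and 37 gene lists were chosen with earlier results of these data known. The genes given by rule were the 15 largest changes each way past the threshold, up to 5 called members of each list, or its 2 smallest p-values where none was called, and a set of genes always given. Alternatives changed the normalization, the value added before log2, the filter, the probe sets tested, the arrays fitted, the weights, tissue scores, RNA quality and single animals. No batch is given in the labels used here. Start windows come from RefSeq tables on GRCm38.p6.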

Additional observations from a re-analysis of the deposited data

Results flagged for a closer look

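For 97 genes, those given by rule or called, the values of each diet were searched for 1 animal far from the others. The measure was the gap to the nearest animal over the whole range, set against Dixon's critical value. It flagged 12 sets of 1 gene on 1 diet, and chance alone flags about 1 in 20 sets. Scgb1a1 with permethrin, where all animals lay at the ceiling, has no range and could not be judged. Among the 26 called genes there was 1, Gstm1, where permethrin replicate 3 (11.05) lay below the next animal (11.54) with a ratio of 0.836. Permethrin arrays also gave Cdh5 in replicate 4 (11.03 above 10.38, ratio 0.914), Ctsk in replicate 1 (4.78 below 6.66, ratio 0.863) and 1600014C10Rik in replicate 3 (7.91 above 7.53, ratio 0.883). Isoniazid replicate 2 accounted for Scgb1a1 (13.13 below the ceiling of 13.18, ratio 1), Top2a (6.30 above 5.89, ratio 0.794), Herpud1 (10.55 above 10.13, ratio 0.869), Gzma (8.14 below 8.81, ratio 0.786) and H2-Ob (4.47 below 5.47, ratio 0.778). The last 3 were Per1 in isoniazid replicate 4 (7.61 below 8.29, ratio 0.897), Sesn2 in isoniazid replicate 3 (3.98 below 5.46, ratio 0.712) and Lox in isoniazid replicate 5 (7.88 below 8.55, ratio 0.746).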

How the results depend on the processing

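Permethrin against isoniazid at 14 days gave 26 genes. It gave 41 probe sets with every probe set tested and 5 genes with the spread taken from the 9 arrays alone. Leaving out single animals gave 20 to 34. With the replicate number as a block it gave 27 genes, 25 of them among the 26, with Pgrmc1 lost (adjusted p = 0.0577). Whether the numbers mark pairs is not given by the labels, and the rule that every pair correlate above 0.1 was not met: correlations of deviations ran from -0.09 to 0.37 over 4 pairs at 14 days, 3 of them above 0.1, and from -0.01 to 0.22 over 5 pairs at 7 days. In 3 of the 4 pairs at 14 days an animal correlated best with its own number. At 7 days the count of 24 went to 15 with arrays centred on the median and to 42 with array weights, and ran from 21 to 25 without single animals. Permethrin against control gave 28 genes, against 46 probe sets with every probe set tested. It gave 71 genes with array weights, 17 with tissue scores as covariates and 9 with the compared arrays alone. Leaving out single animals gave 17 (without permethrin replicate 2) to 48 (without permethrin replicate 4). Isoniazid against control gave 4, against 7 (2 higher and 5 lower) with the replicate block, 2 with array weights, 2 without arrays of high Gapdh ratio, 1 with the compared arrays alone, 3 (1 higher and 2 lower) with arrays centred on the median, and 1 (without control replicate 4 or isoniazid replicate 3) to 6 (without control replicate 3). The change between 7 and 14 days gave 0 throughout. Over up to 21 alternatives, 4 of the 26 genes were never lost (Ces1f, Ces1g, Cyp1a1 and Gsta2) and 0 turned sign. Fewer arrays in a fit leave fewer degrees of freedom, and the cause of the other moves was not tested. The permethrin signal of Cyp1a1 lies near the filter.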
